A study of Mus musculus with 15 samples.

Results

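The genes described here are the 7 listed subunits of the GABA-A receptor, Gabra2, Gabra3, Gabra4, Gabra5, Gabrd, Gabrg1 and Gabrg3, which were taken by name from the 32285 genes of the count tables. Their levels were read in single nuclei of the dorsal hippocampal formation (dHF), per cell class and per group, in 15 female C57BL6/J mice with 1 library each. The NP group (6 mice) had never bred and was matched in age to the dams. The ControlPP group (4 mice) was the control reproductive experience group, in which dams bred, carried, delivered and nursed a litter. The StressPP group (5 mice) had the same experience with limited nesting material and daily removal of the pups for part of lactation. All 3 groups were wild type, and the age of these mice at collection is not given in the sources used here. Batch 1 held NP mice 27 and 31 and StressPP mouse 70 and no ControlPP mouse, while batches 2 and 3 each held 2 NP and 2 ControlPP mice, with 2 StressPP mice in each. The study's methods describe every group as present in every batch, which the labels used here do not show.

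The GABA-A receptor is a chloride channel built of 5 subunits, most often a pair of alpha, a pair of beta and 1 gamma or delta subunit, which opens when GABA binds. Receptors with a gamma subunit mostly sit at synapses and carry brief inhibition. Receptors that pair the delta subunit with the alpha 4 subunit sit outside synapses, carry tonic inhibition and are strongly enhanced by neurosteroids such as the progesterone metabolite allopregnanolone, and are best known from dentate granule cells and thalamic relay neurons. The alpha 5 subunit is known for tonic inhibition in hippocampal pyramidal cells.

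The libraries held 134019 barcodes, of which 123913 nuclei were kept, with 40602582 to 96211264 UMIs and a median of 3993 to 8754 UMIs per barcode. Pairs of libraries shared 0.104 to 0.461% of the barcodes of the smaller library. Nuclei were clustered without the 7 genes and their pathway genes, and 26 classes were named from fixed markers, each name meaning a class that is like that cell type. The punches also held thalamic, habenular, striatal-type and cortical nuclei beside the hippocampal ones. Of the 205 markers of the named classes, which had been used to name them, 151 were highest in their own class. The 6 clusters without a name, together with small clusters, held 9921 nuclei. A level is given as CPM, the UMIs of a gene scaled to 1000000 UMIs, both summed over the nuclei of 1 class in 1 mouse. A mouse entered a class if it gave 10 or more nuclei. The deposited counts were not corrected for free RNA, so each gene's level in microglia, where little neuronal RNA is made, is given as the comparator, and levels at or below it were not read as expression by themselves. Microglial nuclei were shallower than neuronal ones, so the comparator can be too high for deeper classes. A level below it does not show that a class lacked its own RNA of the gene. Pericytes or smooth muscle, also non-neuronal, were above the microglial level for Gabrd, Gabra4, Gabra5, Gabra2 and Gabrg3 and below it for Gabra3 and Gabrg1. A level above the comparator therefore does not by itself show that a class made RNA of the gene. A difference between 2 classes below the comparator is given as measured. Among the 25 other classes, 11 were above the microglial level for Gabrd, 11 for Gabra4, 13 for Gabra5, 16 for Gabra2, 14 for Gabra3, 14 for Gabrg1 and 18 for Gabrg3.

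In the mouse genome (GRCm38) 6 of the 7 genes lie in clusters with other subunit genes. Gabrg1 (chr5:70751047-70842617), Gabra2 (chr5:70957597-71095849) and Gabra4 (chr5:71569749-71658308) stand in a row on the minus strand, next to Gabrb1 (chr5:71658113-72149037) on the plus strand. Gabrg3 (chr7:56716465-57387188) and Gabra5 (chr7:57407672-57510059) are neighbours on the minus strand of chromosome 7. Gabra3 (chrX:72432681-72656848) lies between Gabre and Gabrq on the X chromosome, and Gabrd (chr4:155384980-155398112) is the remaining member. Gabrb1 overlapped Gabra4 on the opposite strand over 196 bases. Whether the counting used strand is not given in the sources used here, so reads from overlaps of genes on opposite strands could not be assigned beyond what the counting did, and the levels of overlapped genes, Gabra5 among them, are uncertain to that extent.

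The promoters of Gabra2 and Gabrg1 are shown because these neighbours had different levels across cell classes, described after the sequences. They are the 250 bases before the transcription start in RefSeq (GRCm38.p6), written 5′ to 3′ on the minus strand, the strand of both genes, with motif matches in capitals. The windows are chr5:71095850-71096099 for Gabra2 and chr5:70842618-70842867 for Gabrg1, and neither window overlaps an annotated gene.
Gabra2: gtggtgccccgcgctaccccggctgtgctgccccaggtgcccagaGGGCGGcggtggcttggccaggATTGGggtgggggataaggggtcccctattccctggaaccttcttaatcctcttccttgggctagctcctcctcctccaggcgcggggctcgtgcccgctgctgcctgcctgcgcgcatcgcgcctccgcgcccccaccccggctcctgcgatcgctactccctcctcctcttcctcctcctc
Gabrg1: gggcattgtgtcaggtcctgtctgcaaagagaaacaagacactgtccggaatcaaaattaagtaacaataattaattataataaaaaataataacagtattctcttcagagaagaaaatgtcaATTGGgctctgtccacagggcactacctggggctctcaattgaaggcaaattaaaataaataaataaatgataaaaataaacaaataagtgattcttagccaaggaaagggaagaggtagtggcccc
The Gabrg1 window was 35.6% G and C, within the lowest 10% of 32851 mouse promoters of this length, which reached up to 38.8%. The Gabra2 window was above the 69.2% at which the highest 10% began. The median of all promoters was 52.4%. The motifs searched on both strands were the TATA box (TATAAA), the CCAAT box, the GC box (GGGCGG), the CRE (TGACGTCA), the EGR motif (GCGTGGGCG) and the E-box (CACGTG). The CCAAT box was found in the Gabra2 and Gabrg1 windows (it reads ATTGG on the other strand) and in 33.8% of all promoters. The GC box was found in the Gabra2 window and in 32.7% of all promoters. The TATA box, CRE, EGR motif and E-box, found in 12.4%, 1.55%, 0.536% and 6.02% of all promoters, were not found in either window.

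Gabrd, the delta subunit of extrasynaptic receptors, was highest in striatal-type projection neurons, thalamic excitatory neurons, 2 interneuron classes and dentate granule cells. Its level was 88.7 ± 25.2 CPM (SD, n = 8) in striatal-type projection neurons and 79.1 ± 24.9 CPM (SD, n = 15) in thalamic excitatory neurons. Pvalb interneurons had 55.1 ± 18.4 CPM, Lamp5 interneurons 48.2 ± 13.5 CPM and dentate granule cells 36.6 ± 8.03 CPM (SD, n = 15 each). These 5 classes were the ones above 2 times the microglial level of 8.40 ± 4.67 CPM. CA1 pyramidal neurons (8.15 CPM), CA3 pyramidal neurons (1.30 CPM) and Sst interneurons (3.51 CPM) were at or below it. A Gabrd UMI was seen in 58.7% of thalamic excitatory nuclei, 40.9% of Lamp5, 26.4% of dentate granule, 9.66% of CA1 and 1.69% of microglial nuclei, at median depths of 14558, 12162, 8554, 13460 and 2062 UMIs. In nuclei thinned to 1000 UMIs these shares were 8.35%, 5.62%, 3.51%, 1.15% and 0.761%, and the 95% Wilson intervals of CA1 (0.901 to 1.45%) and microglia (0.555 to 1.04%) overlapped. These intervals cover counting error only and leave out the spread between mice, so their overlap does not compare the classes. For each gene, neighbours among the 6 classes with the highest means were also tested, on the same values that set their order. The direction of these neighbour tests comes from the order, so their p-values are not those of an independent test and are given as a description. In the order, thalamic excitatory neurons were above Pvalb interneurons in 14 of 15 mice (log2 difference 0.54 ± 0.11 SE, two-sided exact sign-flip permutation test, adjusted p = 9.16e-04). Lamp5 interneurons were above dentate granule cells in 12 of 15 mice (0.36 ± 0.10 SE, adjusted p = 0.0091). Striatal-type and thalamic excitatory neurons were not told apart (0.22 ± 0.11 SE over 8 mice, exact adjusted p = 0.137), nor were Pvalb and Lamp5 interneurons (0.17 ± 0.11 SE, exact adjusted p = 0.205).

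Gabra4, the alpha subunit that partners delta in these receptors, was highest in thalamic excitatory neurons at 542 ± 92.5 CPM (SD, n = 15), followed by striatal-type projection neurons at 298 ± 24.0 CPM (SD, n = 8) and dentate granule cells at 287 ± 22.8 CPM (SD, n = 15). No other class exceeded 2 times the microglial level of 89.1 ± 30.8 CPM. Ependymal cells (140 CPM), astrocytes (139 CPM), pericytes or smooth muscle (135 CPM) and Lamp5 interneurons (130 CPM) lay above it. So did CA1 (128 CPM), CA3 (126 CPM), CA2 (114 CPM) and progenitors or neuroblasts (111 CPM), while Sst interneurons (26.0 CPM) lay below it. The principal cells and interneurons in this range were thus no higher than non-neuronal classes. Thalamic excitatory neurons were above striatal-type neurons in 8 of 8 mice (log2 difference 0.92 ± 0.06 SE, two-sided exact sign-flip permutation test, adjusted p = 0.0195). Striatal-type neurons and dentate granule cells were not told apart (-0.01 ± 0.04 SE, exact adjusted p = 0.932). Across the 26 classes the mean log2(CPM + 1) of Gabra4 and Gabrd had a Pearson correlation of 0.70, the highest of the 6 correlations that Gabrd had with the other listed genes. The classes share libraries, so this is a description.

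Gabra5, the alpha subunit of tonic receptors of hippocampal pyramidal cells, was highest in the pyramidal classes. Its level was 252 ± 27.4 CPM in CA2, 231 ± 31.6 CPM in CA3 and 215 ± 16.8 CPM in CA1 (SD, n = 15 each), where CA1 mice ranged from 183 to 244 CPM. Dentate granule cells had 155 ± 10.2 CPM (SD, n = 15), Lamp5 interneurons 112 CPM and subiculum 99.8 CPM, against 32.6 ± 10.8 CPM in microglia. Thalamic excitatory neurons, where Gabrd and Gabra4 were high, had 20.7 CPM of Gabra5 and so lay below the comparator. CA2 and CA3 differed by a log2 value of 0.13 ± 0.05 SE and CA3 and CA1 by 0.09 ± 0.04 SE, and neither passed the two-sided exact test over the 35 neighbours (adjusted p = 0.0521 for both). The same difference between CA3 and CA1, higher in CA3 in 12 of 15 mice, did pass when adjusted over the 35 tests of fixed pairs described further on (exact adjusted p = 0.0303), so its call depends on the set of tests. CA1 was above dentate granule cells in 15 of 15 mice (0.47 ± 0.02 SE, exact adjusted p = 5.34e-04).

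**Figure D1:**
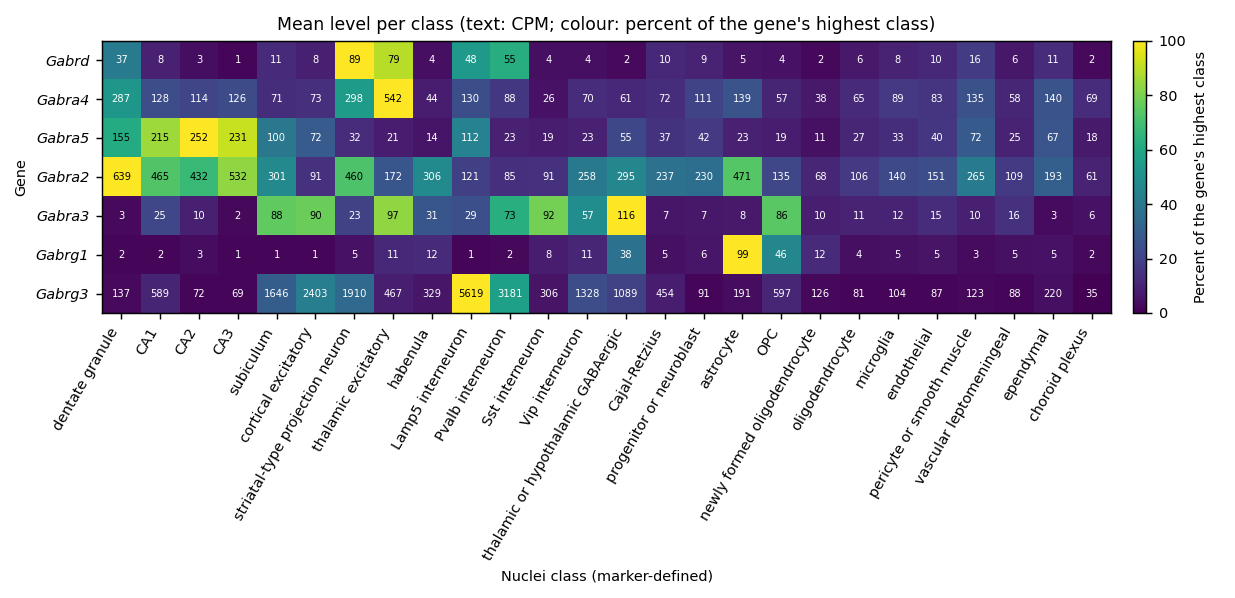
Heat map of the mean level of the 7 genes (rows) in the named cell classes (columns), with the level in CPM printed in each cell and the colour giving it as a percent of the gene's highest class. Gabrd and Gabra4 peak in thalamic excitatory and striatal-type neurons with dentate granule cells next among hippocampal principal cells, Gabra5 in CA2, CA3 and CA1, Gabrg1 in astrocytes and Gabrg3 in Lamp5 interneurons.

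Gabra2, an alpha subunit of synaptic receptors common at the axon initial segment, was highest in dentate granule cells at 639 ± 68.5 CPM (SD, n = 15). CA3 had 532 ± 69.4 CPM, astrocytes 471 ± 72.9 CPM, CA1 465 ± 65.4 CPM and CA2 432 ± 77.9 CPM (SD, n = 15 each), and microglia 140 ± 49.0 CPM. Dentate granule cells were above CA3 in 15 of 15 mice and CA3 above astrocytes in 14 of 15 mice (two-sided exact sign-flip permutation test, adjusted p = 5.34e-04 and 7.12e-04). Astrocytes and CA1 were not told apart (log2 difference 0.02 ± 0.05 SE, exact adjusted p = 0.890). Lamp5 interneurons (121 CPM), Sst interneurons (91.1 CPM) and OPC, the oligodendrocyte precursors (135 CPM), were at or below the microglial level.

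Gabra3, an alpha subunit of synaptic receptors prominent in reticular thalamus, cortex and monoaminergic nuclei, was below the microglial level in dentate granule cells and CA3, the 2 classes with most Gabra2. Thalamic or hypothalamic GABAergic neurons had 116 ± 23.4 CPM, thalamic excitatory neurons 97.0 ± 23.3 CPM, Sst interneurons 91.9 ± 17.7 CPM and OPC 86.4 ± 9.83 CPM (SD, n = 15 each). Cortical excitatory neurons had 90.2 ± 22.7 CPM (n = 11) and subiculum 87.6 ± 19.7 CPM (n = 13). No neighbours from the second to the sixth named class passed the test (lowest exact adjusted p = 0.718). Some clusters without a name, described at the end, had higher means than these named classes. CA1 had 24.9 CPM, above the 11.6 ± 7.25 CPM of microglia, while dentate granule cells (2.97 CPM) and CA3 (2.35 CPM) lay below it.

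Gabrg1, a gamma subunit known from glia and from a few subcortical nuclei, was highest in glial classes among the named classes. Astrocytes had 99.2 ± 22.6 CPM and ranged from 58.6 to 135 CPM over 15 mice, OPC had 45.9 ± 11.6 CPM, and thalamic or hypothalamic GABAergic neurons had 37.6 ± 11.2 CPM (SD, n = 15 each). Astrocytes were above OPC in 15 of 15 mice (log2 difference 1.11 ± 0.10 SE, two-sided exact sign-flip permutation test, adjusted p = 5.34e-04). Dentate granule cells (1.90 CPM), CA1 (1.77 CPM) and CA3 (1.40 CPM) were below the microglial 4.54 ± 2.50 CPM. Its neighbour Gabra2, whose promoter is shown above, was high in both astrocytes and these principal cells.

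Gabrg3, a gamma subunit less studied than gamma 2, was highest in Lamp5 interneurons, the neurogliaform type, at 5619 ± 524 CPM (SD, n = 15). The 15 mice had a lowest Lamp5 value of 4588 CPM, a median of 5600 CPM and a highest of 6617 CPM. Pvalb interneurons had 3181 ± 546 CPM (n = 15), cortical excitatory neurons 2403 ± 320 CPM (n = 11) and striatal-type projection neurons 1910 CPM (n = 8). Subiculum had 1646 ± 183 CPM (n = 13) and Vip interneurons 1328 ± 199 CPM (n = 15). Sst interneurons had 306 CPM, CA1 589 CPM and dentate granule cells 137 CPM, against 104 ± 40.4 CPM in microglia, and CA3 (69.0 CPM) was below that. In nuclei thinned to 1000 UMIs, 95.8% of 837 Lamp5 nuclei (95% Wilson interval 94.2 to 97.0%) held a Gabrg3 UMI, against 9.85% of 4996 microglial nuclei (9.05 to 10.7%). Before thinning the shares were 99.5% and 19.3%, at median depths of 12162 and 2062 UMIs, and the intervals cover counting error only. StressPP mouse 77 had 55.7 CPM of Gabrg3 in its 110 thalamic excitatory nuclei, where the other 14 mice had 394 to 745 CPM.

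**Figure D2:**
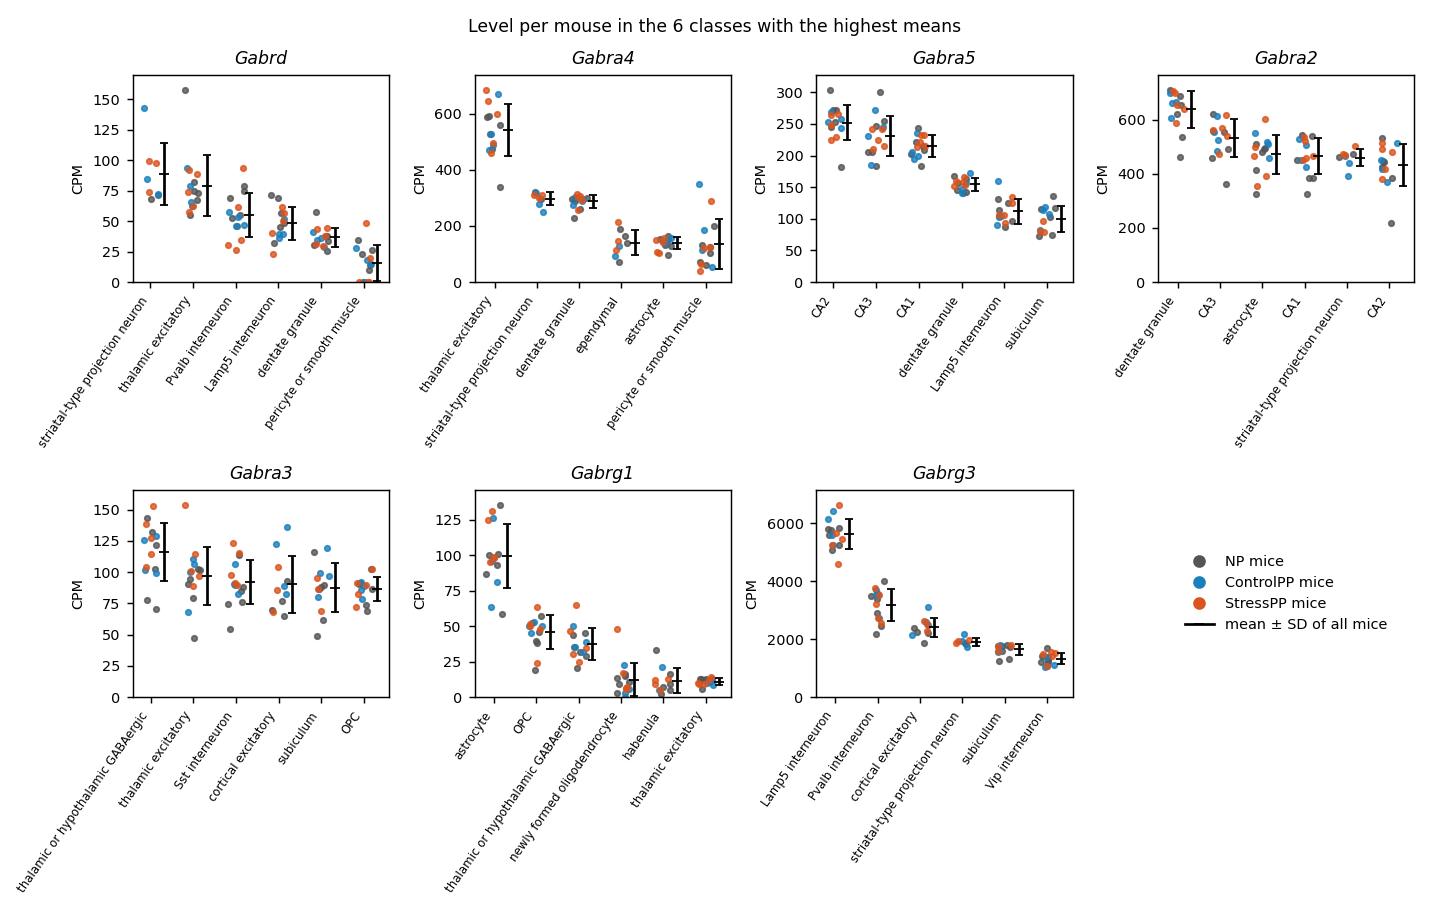
Each mouse's level (CPM) of the 7 genes in the 6 classes with its highest means, 1 panel per gene, with points coloured by group (NP, ControlPP, StressPP) and a black bar for the mean and SD over mice. Every Gabrg3 point in Lamp5 interneurons (4588 CPM or more) lies above every point in Pvalb interneurons (4007 CPM or less), and NP mouse 31 is the highest Gabrd point in thalamic excitatory neurons (158 CPM).

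Within each mouse, 5 pairs of classes were compared for each gene by a two-sided exact sign-flip permutation test over 15 mice, with p adjusted over the 35 tests. The smallest p this test can give is 6.10e-05. Between dentate granule cells and CA1, 6 of 7 genes differed, where 75.2% of 15003 genes had p below 0.05. Between dentate granule cells and CA3 it was 7 of 7 against 81.2% of genes, and between CA1 and CA3 5 of 7 against 66.2%. Between Lamp5 and Sst interneurons it was 7 of 7 against 37.6%, and between astrocytes and OPC 6 of 7 against 64.2%. Shares this near to those of all genes are no result about the 7 genes in the comparisons of principal cells. A difference of over 1 log2 unit was seen in 4, 3, 3, 6 and 5 of the 7 genes in these comparisons, in the order given, and in 15.2%, 16.2%, 11.8%, 11.9% and 23.8% of all genes. In 8 of the 35 tests both classes were at or below the microglial level, and 5 of those 8 were called; of the other 27, 26 were called.

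Dentate granule cells were above CA1 and CA3 for both neurosteroid-sensitive subunits. For Gabra4 they were higher than CA1 by 1.16 ± 0.03 SE and than CA3 by 1.20 ± 0.04 SE on the log2 scale, in 15 of 15 mice each (exact adjusted p = 8.54e-05). For Gabrd they were higher than CA1 by 2.10 ± 0.08 SE and than CA3 by 4.05 ± 0.07 SE in 15 of 15 mice each (exact adjusted p = 8.54e-05), with CA1 and CA3 both below the microglial level. CA1 was in turn above CA3 for Gabrd by 1.95 ± 0.08 SE in 15 of 15 mice (exact adjusted p = 8.54e-05). In nuclei thinned to 1000 UMIs 0.205% of CA3 nuclei held a Gabrd UMI (95% Wilson interval 0.111 to 0.377%, which covers counting error only). For Gabra5 the order was the opposite, with dentate granule cells lower than CA1 by a log2 difference of -0.47 ± 0.02 SE and than CA3 by -0.56 ± 0.04 SE. Gabra4 did not pass the test between CA1 and CA3 (0.03 ± 0.02 SE, exact adjusted p = 0.159). The log2 scale is that of CPM + 1, which understates differences of low values.

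Gabrg3 separated CA1 from CA3 and from dentate granule cells. CA1 was above CA3 by 3.19 ± 0.18 SE and dentate granule cells were below CA1 by a log2 difference of -2.10 ± 0.04 SE (15 of 15 mice each, exact adjusted p = 8.54e-05). Lamp5 interneurons exceeded Sst interneurons by 4.32 ± 0.17 SE for Gabrg3, 3.59 ± 0.19 SE for Gabrd, 2.65 ± 0.18 SE for Gabra5 and 2.41 ± 0.20 SE for Gabra4, each in 15 of 15 mice. Gabra2 differed less (0.46 ± 0.11 SE, higher in Lamp5 in 11 of 15 mice, exact adjusted p = 0.0016), with both classes below the microglial level. Gabra3 and Gabrg1 went the other way, Gabra3 at -1.66 ± 0.09 SE in 15 of 15 mice and Gabrg1 at -1.87 ± 0.43 SE (7.62 CPM in Sst and 1.36 CPM in Lamp5 interneurons, which were higher in 1 of 15 mice, exact adjusted p = 0.0016). Astrocytes exceeded OPC for Gabra2 (1.79 ± 0.07 SE), Gabra4 (1.33 ± 0.11 SE) and Gabrg1, and OPC exceeded astrocytes for Gabra3 (-3.37 ± 0.15 SE) and Gabrg3 (-1.67 ± 0.10 SE). The remaining called gene was Gabra5 (0.29 ± 0.10 SE), below the microglial level in both classes.

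**Figure D3:**
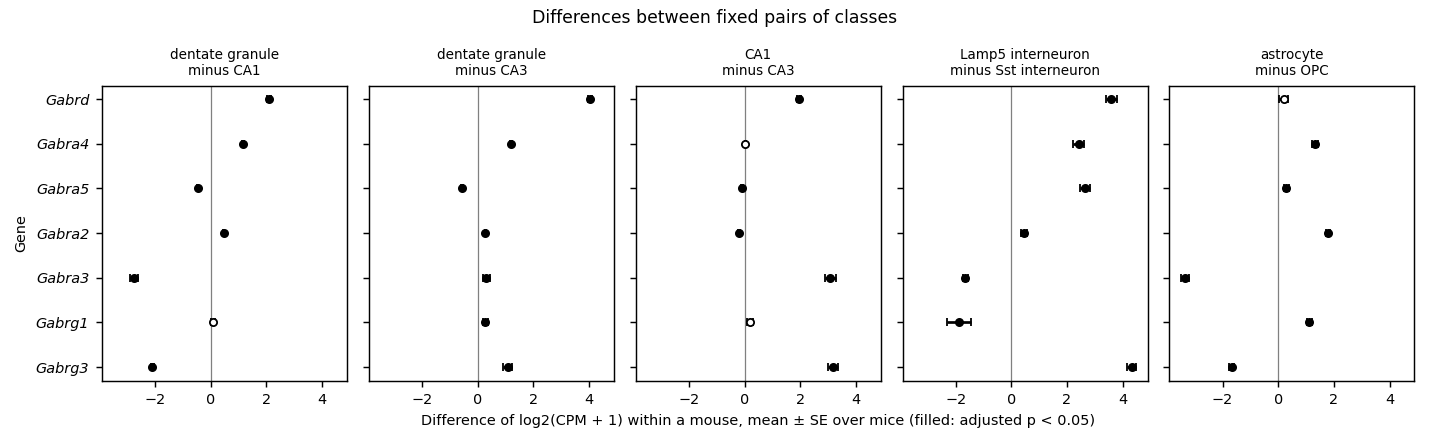
Difference in log2(CPM + 1) between 2 classes of the same mouse for each of the 7 genes, as the mean with its SE over 15 mice, filled where the adjusted p is below 0.05. Gabrd and Gabra4 lie above 0 for dentate granule cells against CA1 and CA3, Gabra3 and Gabrg1 lie below 0 for Lamp5 against Sst interneurons, and Gabra3 and Gabrg3 lie below 0 for astrocytes against OPC.

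Because classes differ in number of nuclei and depth, the share of a gene's UMIs in a class is a different quantity from its level. Dentate granule cells, which were 14.3 to 37.8% of the nuclei of a mouse, held 44.1% of the 24797 Gabrd UMIs pooled over mice, 43.3% of Gabra4, 44.3% of Gabra5 and 49.9% of Gabra2. Thalamic excitatory neurons, at 1.40 to 9.62% of nuclei, held 33.8% of Gabrd, 28.8% of Gabra4 and 31.9% of Gabra3 UMIs. Astrocytes held 30.9% of the 11360 Gabrg1 UMIs. Lamp5 interneurons were 0.506 to 0.896% of nuclei and held 13.4% of the 476924 Gabrg3 UMIs. The thalamic share of Gabrd ranged from 11.3 to 49.8% between mice. The share of all UMIs that each class held is not given here, so these shares alone do not show an excess over other genes.

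**Figure D4:**
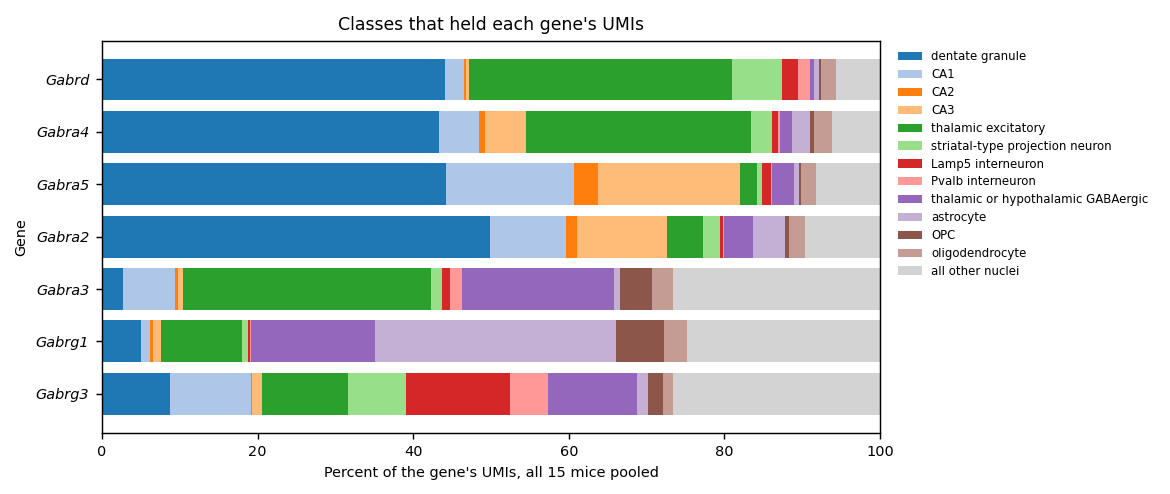
Stacked bars of the percent of each gene's UMIs, pooled over 15 mice, that came from each cell class, with the remaining nuclei as 1 segment. Dentate granule cells hold 43.3 to 49.9% of the UMIs of Gabrd, Gabra4, Gabra5 and Gabra2, and no class holds more than 31.9% of Gabra3, 30.9% of Gabrg1 or 13.4% of Gabrg3.

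Within the dentate granule class 2 clusters were joined, with 18968 and 12867 nuclei, and their levels are given as a description. Gabra5 was 132 ± 10.2 CPM in the larger and 185 ± 15.3 CPM in the smaller (SD, n = 15), and the ranges of the 15 mice (113 to 151 and 160 to 206 CPM) did not overlap. Gabra2 was 699 ± 72.5 against 559 ± 56.8 CPM, Gabra4 310 ± 22.9 against 258 ± 19.0 CPM and Gabrg3 155 ± 20.5 against 114 ± 19.2 CPM. Gabrd, at 37.9 ± 8.28 and 35.0 ± 8.09 CPM, differed between them by less than 1 SD. The 2 astrocyte clusters had 83.4 ± 21.3 and 125 ± 32.7 CPM of Gabrg1.

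The genes whose pattern over the 26 classes was most like each member, among 15560 genes with at least 10 CPM in some class and leaving out the 7 genes themselves, were found by the Pearson correlation of mean log2(CPM + 1). For Gabrg3 it was Gm9962 (0.94), the antisense gene that runs the other way from beside its promoter (chr7:57387272-57409941, plus strand), followed by Ankrd34b (0.86) and Sgcz (0.83). For Gabra5 they were Cpne6 (0.93), Mlip (0.87) and Cabp7 (0.85), and for Gabra2 Chst1 (0.87), Inhba (0.83) and Adgrb2 (0.78). For Gabra3 they were Ank1 (0.89), Cntn4 (0.89) and Cntn6 (0.85), and for Gabrg1 Gm33680 (0.80), Plpp4 (0.78) and Gpc5 (0.78). Gabra4 had lower values, with Krt12 (0.74), Dusp14 (0.74) and Acvr1c (0.72), as did Gabrd, with AI593442 (0.69), Gsg1l (0.68) and Gabrb2 (0.65), the last a beta subunit, all below the 0.70 between Gabrd and Gabra4. Between neighbours in the genome, Gabra5 and Gabrg3 had 0.03, Gabra4 and Gabrb1 0.59, and Gabra2 and Gabrg1 0.06. Gabra3 and Gabrg3 had 0.70.

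Reproductive experience and postpartum stress were then compared by edgeR's quasi-likelihood test on counts summed per mouse, fitted over all genes in each of 22 classes and in the whole punch. Striatal-type projection neurons, habenula, ependymal cells and progenitors or neuroblasts had too few mice in some group and were not tested by group. The named class with the highest mean of Gabrd, striatal-type projection neurons, is therefore not covered. Of the 154 combinations of gene and class, 112 passed the filter on low counts, all 22 for Gabra2, Gabra4 and Gabrg3 and 7 each for Gabrd and Gabrg1. None of the 112 tests passed an adjusted p of 0.05 for ControlPP minus NP (0.0% of 196652 tests over all genes), StressPP minus ControlPP (0.00153%) or StressPP minus NP (0.0%). At an unadjusted p below 0.05 there were 4 tests for ControlPP minus NP, 2 for StressPP minus ControlPP and 7 for StressPP minus NP, that is 3.57%, 1.79% and 6.25% of the 112, where all genes had 3.18%, 2.46% and 3.8%. DESeq2 called none of its 151 tests in any contrast, with 4, 3 and 5 at an unadjusted p below 0.05. In the whole punch none of the 7 genes passed (all genes 0.00472%, 0.0% and 0.0% for the same contrasts), and Gabra5 alone had an unadjusted p below 0.05, in ControlPP minus NP (log2 fold change 0.30 ± 0.13 SE, edgeR adjusted p = 0.928), where all genes had 3.98%, 0.85% and 4.02%. In the whole punch, fewer nuclei of a type and less RNA per nucleus cannot be told apart. Each pair of contrasts shares 1 group of mice, so the contrasts are not independent of one another.

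Gabrd and Gabra4 in dentate granule cells did not differ between groups by more than the spread between mice. The 6 NP mice had Gabrd from 25.8 to 57.8 CPM with a median of 35.8 CPM. ControlPP mice 66, 72, 87 and 88 had 35.9, 34.6, 41.5 and 28.7 CPM, and StressPP mice 43, 70, 75, 77 and 90 had 37.6, 44.3, 43.7, 30.99 and 29.4 CPM, so the 3 groups overlap. The Gabrd log2 fold change was -0.01 ± 0.18 SE for ControlPP minus NP, 0.06 ± 0.18 SE for StressPP minus ControlPP and 0.05 ± 0.16 SE for StressPP minus NP (edgeR adjusted p = 1.00 for each). Gabra4 ranged from 229 to 300 CPM with a median of 293 CPM in NP, was 304, 295, 289 and 276 CPM in ControlPP mice 66, 72, 87 and 88, and was 314, 257, 293, 303 and 308 CPM in StressPP mice 43, 70, 75, 77 and 90. Its log2 fold changes were 0.11 ± 0.10 SE, 0.01 ± 0.10 SE and 0.11 ± 0.09 SE (edgeR adjusted p = 0.982, 1.00 and 1.00).

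The batch moved with these levels. In dentate granule cells the 3 mice of batch 1 had 46.5 CPM of Gabrd on average, against 29.9 and 38.4 CPM for batches 2 and 3. They had less Gabra4 (249 against 295 and 299 CPM) and less Gabra2 (528 against 653 and 680 CPM), and their highest Gabra4 value (261 CPM) was below the lowest of batches 2 and 3 (276 CPM). Within batches the Gabrd log2 difference of ControlPP minus NP was 0.17 in batch 2 and 0.10 in batch 3. For Gabra4 it was -0.05 and -0.01 (2 mice a group in each batch, without a test). In the fit with batch as a term, ControlPP minus NP was 0.15 for Gabrd and 0.017 for Gabra4 on the log2 scale, and without batch 1 it was 0.16 and -0.013, so that the sign turned for Gabrd in both and for Gabra4 without batch 1 (edgeR adjusted p = 1.00 for each). ControlPP had no mouse in batch 1.

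**Figure D5:**
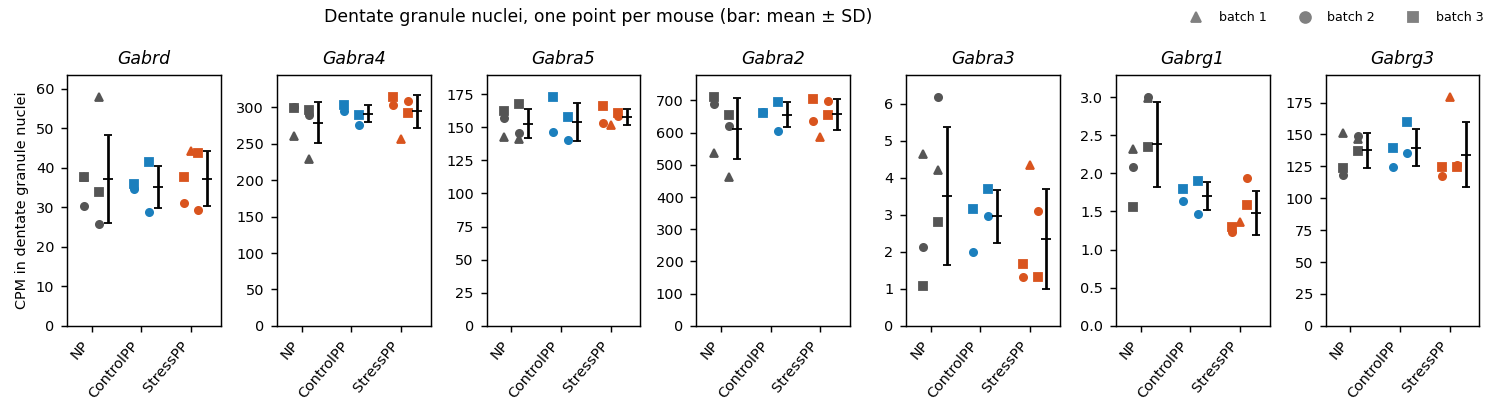
Levels (CPM) of the 7 genes in dentate granule cells by group, 1 panel per gene and 1 point per mouse, with the group mean and SD as a black bar and the batch as the shape of the point. The groups overlap for Gabrd and Gabra4, with means of 37.2, 35.2 and 37.2 CPM for Gabrd and 279, 291 and 295 CPM for Gabra4 in NP, ControlPP and StressPP.

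Each other gene was also read by group in the named class where it was highest or best known. Gabra5 in CA1 ranged from 183 to 244 CPM with a median of 212 CPM in NP, was 236, 199, 205 and 194 CPM in ControlPP mice 66, 72, 87 and 88, and was 222, 213, 232, 232 and 215 CPM in StressPP mice 43, 70, 75, 77 and 90. Its log2 fold changes were 0.04 ± 0.10 SE, 0.09 ± 0.10 SE and 0.13 ± 0.09 SE for ControlPP minus NP, StressPP minus ControlPP and StressPP minus NP (edgeR adjusted p = 0.999, 1.00 and 1.00). Gabra2 in dentate granule cells was 612 ± 95.0 CPM in NP (n = 6), 656 ± 37.4 CPM in ControlPP (n = 4) and 656 ± 48.3 CPM in StressPP (n = 5). NP mouse 31 was the lowest of all at 463 CPM, and the groups overlapped.

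Gabrg1 in astrocytes was 95.7 ± 24.8 CPM in NP, 91.7 ± 26.3 CPM in ControlPP and 110 ± 16.9 CPM in StressPP (SD, n = 6, 4 and 5). The StressPP minus ControlPP log2 fold change was 0.22 ± 0.20 SE (edgeR adjusted p = 1.00), and values ran from 63.7 to 126 CPM in ControlPP and from 94.9 to 131 CPM in StressPP. Gabrg3 in Lamp5 interneurons was 5552 ± 324 CPM in NP, 5855 ± 529 CPM in ControlPP and 5510 ± 738 CPM in StressPP, with log2 fold changes of 0.14 ± 0.12 SE, -0.10 ± 0.12 SE and 0.03 ± 0.11 SE (edgeR adjusted p = 0.962, 1.00 and 0.996). Gabra3 in thalamic or hypothalamic GABAergic neurons was 108 ± 29.6 CPM in NP, 114 ± 15.4 CPM in ControlPP and 127 ± 19.3 CPM in StressPP, again with overlapping mice.

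The group differences with the smallest unadjusted p for each gene did not pass the adjusted threshold. Gabrg3 in CA2, at 71.9 CPM and so below the microglial level, had a log2 fold change of 0.78 ± 0.26 SE in StressPP minus ControlPP (edgeR adjusted p = 1.00): the ControlPP mice had 34.9, 51.9, 25.9 and 66.6 CPM and the StressPP mice 93.8, 65.4, 80.4, 68.4 and 98.1 CPM, on 10 to 121 UMIs a mouse, so that only ControlPP mouse 88 reached into the StressPP range. The same gene and class had -0.76 ± 0.27 SE in ControlPP minus NP (edgeR adjusted p = 0.844), with NP mice from 24.0 to 109 CPM. Within batches 2 and 3 the StressPP minus ControlPP difference was 0.47 and 1.50, while ControlPP minus NP was 0.24 and -1.53 and so turned direction between batches. Gabra3 in microglia had -1.35 ± 0.44 SE in StressPP minus NP (edgeR adjusted p = 0.879), on 3 to 21 UMIs a mouse, and Gabra3 in CA3, below the microglial level, had -1.45 ± 0.47 SE in the same contrast (edgeR adjusted p = 0.980). Gabra4 in Sst interneurons, also below the microglial level, had 0.91 ± 0.34 SE in ControlPP minus NP (edgeR adjusted p = 0.936). Gabra5 in Pvalb interneurons (22.9 CPM, below the microglial level) had -0.91 ± 0.41 SE in StressPP minus ControlPP, Gabrg1 in dentate granule cells -0.62 ± 0.20 SE in StressPP minus NP at a level below the microglial one, Gabra2 in Vip interneurons 0.30 ± 0.16 SE in StressPP minus NP and Gabrd in Lamp5 interneurons -0.27 ± 0.23 SE in ControlPP minus NP (edgeR adjusted p = 1.00, 1.00, 0.822 and 0.962). A test of whether the dentate granule minus CA1 difference itself changed between groups called 0 of 21 (exact permutation test of group labels, two-sided, lowest adjusted p = 0.871).

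The rest of the GABA pathway was read from 7 lists, and edgeR called no gene of any list in any class, the whole punch or any contrast. Over all genes, classes and the whole punch, 3.26%, 2.3% and 3.83% of 217817 tests had an unadjusted p below 0.05 in ControlPP minus NP, StressPP minus ControlPP and StressPP minus NP, with median log2 fold changes of -0.0033, -0.0042 and -0.0038. The tests of a list share genes and mice and are not independent. The 12 other GABA-A subunits, of which 9 passed the filter in some class, had 8, 2 and 7 of 121 such tests in the same contrasts (6.61%, 1.65% and 5.79%). The nearest to a call was Gabrb1, a beta subunit, in Cajal-Retzius cells at -1.01 ± 0.23 SE in StressPP minus ControlPP (adjusted p = 0.110). The 6 GABA-B receptor genes, which code for the metabotropic receptor and its KCTD partners, had 18, 3 and 17 of 103 tests (17.5%, 2.91% and 16.5%) and median log2 fold changes of -0.09, 0.01 and -0.10, with Kctd8 in the whole punch at -1.25 ± 0.32 SE in ControlPP minus NP (adjusted p = 0.818). Within classes Kctd8 had -2.07 ± 0.59 SE in cortical excitatory neurons and -0.99 ± 0.28 SE in oligodendrocytes in ControlPP minus NP (adjusted p = 0.95 and 1.00). In StressPP minus NP it had -1.45 ± 0.39 SE in vascular leptomeningeal cells, -1.39 ± 0.42 SE in microglia and, in the other direction, 0.64 ± 0.20 SE in Sst interneurons (adjusted p = 0.988, 0.879 and 0.867). The habenula had 2695 CPM of Kctd8 and its share of nuclei varied from 0 to 4.78% between mice. The part of the habenula in the whole-punch value was not tested. The counts were not corrected for free RNA, and Kctd8 levels in the tested classes named above are not given here. The part of free RNA in the class values of Kctd8, and so in the shares of the GABA-B list, was not tested. These shares alone therefore do not show changes inside the classes. The 15 anchoring and assembly genes, such as Gphn for gephyrin, had 10, 9 and 8 of 290 tests (3.45%, 3.1% and 2.76%). The lists of GABA synthesis (5 genes), GABA uptake (4) and chloride transport (4) had 6, 4 and 2 of 74 tests (8.11%, 5.41% and 2.7%), 2, 1 and 3 of 32 (6.25%, 3.12% and 9.38%), and 6, 0 and 3 of 80 (7.5%, 0% and 3.75%). The list of neurosteroid enzymes, with genes for making allopregnanolone and for making or delivering its precursors, passed the filter for 6 of 7 genes. It had 2, 0 and 1 of 33 tests (6.06%, 0% and 3.03%), with Srd5a3 in CA3 at 0.53 ± 0.17 SE in StressPP minus NP (adjusted p = 0.980).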

How the data were processed

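Nuclei of dHF micropunches were profiled with 10x Genomics 3′ v3.1 chemistry, and the deposited values are raw UMI counts per gene and nucleus, which the authors made with Cell Ranger (7.1.0 in the processing notes, 7.0.0 in the matrix headers) on mm10. Their later corrections for free RNA and doublets are not part of these counts. Barcodes under 200 genes or over 5% mitochondrial UMIs were removed, as were doublets by score (0.8% of barcodes per 1000 barcodes). Nuclei were clustered (scanpy 1.11.5, 2000 variable genes without the genes described and their pathway genes, 30 components, Leiden resolution 1.0) and named from marker lists, with naming thresholds set after the clusters were seen. The genes and lists were chosen with earlier results of these data known. UMIs were summed per mouse and class where a mouse had at least 10 nuclei.

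Groups were compared in classes with at least 3 mice a group by edgeR 4.0.16 (quasi-likelihood, TMM, filterByExpr, no covariates, Benjamini-Hochberg over all genes of a class). In simulated data for ControlPP minus NP, this fit found 51, 60 and 50% of changes of 1 log2 unit in the whole punch, dentate granule cells and Lamp5 interneurons. It found 89, 92 and 94% of changes of 2 log2 units. In each simulation 100 genes were changed by 1 log2 unit and another 100 by 2 log2 units at once. Many called genes ease the adjusted threshold, so these rates can overstate how often a lone change would be found. The lack of a call therefore does not show that a gene was unchanged. Classes were compared within mice on log2(CPM + 1) by exact sign-flip tests. The tests of neighbours used the same values that set the order of the classes. Named are the 7 genes, for each the 3 genes most alike over classes, and of each pathway list the genes with the smallest p, since none was called. The class and contrast given for each gene was the one with its smallest p over its tests, and for Gabrd and Gabra4 also dentate granule cells. Alternatives were DESeq2 1.42.0, RLE factors, no filter, batch as a term, at least 20 nuclei, log2(CPM + 5), nuclei of at least 1000 UMIs and leaving out each mouse. Leaving out batch 1 was chosen after seeing the data. Promoters came from RefSeq, where 6 of the 7 genes had an entry, and Gabrd had none. Some related genes are not reported here.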

Additional observations from a re-analysis of the deposited data

Results flagged for a closer look

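Of 57 groups of 4 to 6 mice in which the 7 genes were read in the whole punch, in dentate granule cells and in the class of highest level, 3 held a mouse far from the others, where chance gives about 1 in 20. NP mouse 31, of batch 1, had 47.0 CPM of Gabrd in the whole punch, while the other 5 NP mice had 17.2 to 26.2 CPM. The same mouse had 57.8 CPM of Gabrd in dentate granule cells, while the others had 25.8 to 37.8 CPM. This second value passed the rule narrowly, with a gap of 0.6252 of the range against a critical value of 0.625. StressPP mouse 70, also of batch 1, had 179 CPM of Gabrg3 in dentate granule cells, while the other 4 StressPP mice had 118 to 126 CPM. The smaller dentate cluster, which had less Gabrg3, held 63.7% and 55.6% of the dentate granule nuclei of these mice and 51.1% of those of ControlPP mouse 87, against 34.0 to 48.6% in the other 12 mice. The libraries of mice 31 and 70 lost 42 and 58 barcodes to the filters on genes and mitochondrial UMIs, against 0 to 4 in each other library. The library of mouse 31 also had the fewest UMIs (40602582) and the lowest median depth (3993 UMIs). The part of library quality in these values was not tested.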

How the results depend on the processing

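No group comparison gained a call under any alternative run: 0 tests passed in every class, whole-punch and interaction result, with a lowest adjusted p of 0.0570. The fixed pairs gave 30 to 31 calls and the neighbours in the order 15 to 16. With at least 20 nuclei, the differences of Gabra3 between Sst interneurons and cortical excitatory neurons (0.087) and between subiculum and OPC (-0.035), of Gabra4 between ependymal cells and astrocytes (-0.019) and of Gabrg1 between newly formed oligodendrocytes and habenula (0.25) turned direction, all uncalled, and Gabra4 in dentate granule against ependymal cells (2 mice left) lost its call, as did Gabra3 between dentate granule cells and CA3 at log2(CPM + 5).

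In dentate granule cells the small group differences turned sign. For Gabrd, ControlPP minus NP was 0.15 with batch as a term and 0.16 without batch 1, and StressPP minus ControlPP was -0.039 with batch as a term. For Gabra4, ControlPP minus NP was -0.013 without batch 1. Leaving out 1 mouse in turn moved Gabrd from -0.13 to 0.13 (ControlPP minus NP), from -0.027 to 0.19 (StressPP minus ControlPP) and from -0.018 to 0.19 (StressPP minus NP), and Gabra4 from -0.023 to 0.063 (StressPP minus ControlPP). The cause was not tested. Mouse numbers in the labels are unique, so no paired analysis was possible because the groups share no replicate numbers. The low UMI counts of Gabrd and Gabrg1 limited them to 7 of 22 classes.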

Other observations

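Other genes of the GABA pathway also had marked class patterns, given as means over mice. Gabrr2, a rho subunit better known from retina, had 51.1 CPM in oligodendrocytes and 20.5 CPM in newly formed oligodendrocytes and reached 10 CPM in 3 of 26 classes. Slc6a11, the GABA transporter GAT3, had 818 CPM in astrocytes against 47.2 CPM in the next class, and Slc6a13 had 402 CPM in vascular leptomeningeal cells against 39.0 CPM in the next. Kctd8, an auxiliary subunit of GABA-B receptors, had 2695 CPM in habenula and 824 CPM in striatal-type projection neurons. Kctd12 was highest in microglia at 207 CPM.

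Among clusters without a name, one of 1987 nuclei led by Ebf1, Ebf2 and Ebf3 had 129 ± 18.5 CPM of Gabra3, 69.2 ± 19.4 CPM of Gabrg1 and 1455 ± 144 CPM of Gabrg3 (SD, n = 15), and held 12.7% of all Gabrg1 UMIs on 0.481 to 2.88% of the nuclei of a mouse. Another of 457 nuclei led by Cpa6, Ano2 and Ano1 had 194 ± 143 CPM of Gabra3 and 70.5 ± 69.0 CPM of Gabrg1 (SD, n = 9), and 38.5% of its nuclei came from 1 library.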
